A study of Danio rerio with 48 samples.

Results

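The comparison described here sets the zebrafish retina after 36 h in light (36 hpl) against the retina after 24 and 72 h (24 and 72 hpl), that is, a time in light that is not a whole number of days against the 2 neighbouring times that are. It rests on 18 of the 48 libraries of the chronic low light (CLL) time-course, namely all 6 libraries of 36 hpl and all 12 of 24 and 72 hpl, chosen by time-point and not by any measured value. Each library was made from 1 retina, dissected from the left eye of an adult albino fish aged 6 to 9 months, and some retinal pigment epithelium and vitreous may have come along. All fish had been kept in a cycle of 14 h light and 10 h dark at 250 lux, spent 24 h in the dark, and were then held without a dark phase at 5000 lux until harvest. During the light treatment, food was given every 3 days per the labels. The 0 h fish were taken at the end of the dark phase, and fish of 5, 10, 14 and 28 days (dpl) gave the other libraries. Replicates 1 to 3 and 4 to 6 form 2 library sets that are told apart by the column names, with 3 libraries of each set at every time-point. Neither the hour at which the light came on nor the hour of feeding is given, and 36 hpl is the only time-point that is not a whole number of days. Clock time, hours in light and time since feeding therefore cannot be told apart in this comparison.

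As background, most zebrafish cells carry a circadian clock that light can set directly. The proteins Clock and Arntl (Bmal) bind DNA together and switch on period, cryptochrome, nr1d and bhlhe genes, whose products then repress or tune the activators, and the round takes about a day. The PAR bZIP factors (tef, hlf, dbp) and nfil3 pass this rhythm on to other genes, and rhythmic melatonin synthesis through Aanat2 is the best known output in photoreceptors and the pineal organ. In zebrafish, per2, cry1aa and several DNA repair genes are also induced by light itself. In photoreceptors, light activates an opsin, the opsin activates transducin, transducin activates a cGMP phosphodiesterase, and kinases, arrestins and calcium sensors end the response.

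Of 11395 genes tested with limma on log2(value + 1), at an adjusted p under 0.05 the 36 hpl level exceeded the mean of 24 and 72 hpl in 1011 and was below it in 616, that is 8.87% and 5.41% of the genes tested. With a fold of at least 2 as well, 363 (3.19%) were higher and 322 (2.83%) lower. Of the genes called at the adjusted p alone, 954 higher and 588 lower ones (8.37% and 5.16% of the genes tested) had a 36 hpl mean outside both the 24 hpl and the 72 hpl mean in each of the library sets. The 2 neighbours differed less from each other: between 72 and 24 hpl, 178 genes (1.56%) were higher and 71 (0.623%) lower at a fold of at least 2. Without 24 hpl replicate 1 these counts were 117 and 37, and the second was 38 and 42 without 24 hpl replicate 4 or 6, while leaving out replicate 5 of 24 hpl or replicate 4 of 72 hpl gave 120 and 113. Against 24 hpl alone the counts were 542 (4.76%) higher and 437 (3.84%) lower, and against 72 hpl alone 288 (2.53%) and 237 (2.08%). Both of these share the 36 hpl libraries. Over all genes tested, the log2 fold change had a median of 0.17 in the main comparison, so the split between higher and lower genes depends on the scaling. After rescaling by median-of-ratios the median was 0.03 and 243 genes were higher and 418 lower, and after upper quartile rescaling it was 0.02 with 237 and 436. Higher genes made up 53.0% of the calls as deposited and 36.8% and 35.2% after the rescalings. No named gene called here changed its direction under either rescaling. These genes were picked by their calls before rescaling, so this is no separate support.

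The deposited values sum to nearly the same total in each of the 18 libraries (1631676 to 1636412), so the sequencing depth behind a value is not known. The 10 retinal markers checked (rho, gnat1, opn1lw2, gnat2, vsx1, gad1b, slc6a9, glula, rlbp1a and elavl3) were above 0 in every library, the lowest value being 4.86 in opn1lw2. Among the 18 libraries, those of set 1 had 11689 to 12747 genes above 0. In set 2 each library had 13957 at 24 hpl and 14002 at 36 hpl. At 72 hpl, replicates 4 and 5 had 13969 and replicate 6 had 12300. Values of 0 were thus rarer in most set 2 libraries. On the log2 scale, 24 hpl replicate 1 and 72 hpl replicates 1, 3 and 4 lay farther from the other 2 libraries of their set and time-point (root mean square 1.03 to 1.07) than the other 14 did (0.70 to 0.91). Without these 4 libraries, 348 genes were higher and 305 lower in the main comparison.

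The 8 clock lists hold 75 genes, of which 67 are in the table and 60 could be tested. At 36 hpl 17 of the 60 were higher (28.3%) and 18 lower (30.0%), beside 8.87% and 5.41% of all genes tested. The lists here and below were chosen with earlier results of these data known, so their shares are descriptions and not tests. The median log2 fold change of the 60 was 0.17, equal to that of all genes at this rounding. In 7 of the 60 all 6 libraries of 36 hpl lay above all 12 of 24 and 72 hpl, and in 12 all lay below, beside 1.47% and 1.11% of all genes tested. Values of single genes are given below as the lowest, the median and the highest of the 6 libraries of a time-point, in deposited normalised values, and log2 fold changes are 36 hpl against the mean of 24 and 72 hpl unless stated otherwise. Of the 138 named genes called, 19 lost their call with library set 1 alone and 48 with set 2 alone. Only some of these losses are given gene by gene.

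All 4 period genes, which encode the repressors that partner the cryptochromes, were lower at 36 hpl. The values of per3 were 1.62, 5.00 and 14.3 at 36 hpl, against 55.0, 99.3 and 131 at 24 hpl and 40.6, 56.9 and 113 at 72 hpl. No 36 hpl library reached the lowest of the other 12, and the log2 fold change was -3.78 (SE 0.27, adjusted p = 1.23e-15). For per1b the values were 36.9, 132 and 237 at 36 hpl, against 558, 728 and 1677 at 24 hpl and 343, 472 and 625 at 72 hpl, again without overlap, with a log2 fold change of -2.52 (SE 0.24, adjusted p = 6.3e-12). Its log2 fold change was -1.71 in set 1 and -3.34 in set 2 (adjusted p of the set difference 0.111). The light-induced per2 had values of 133, 181 and 216 at 36 hpl, against 462, 738 and 1033 at 24 hpl and 263, 409 and 471 at 72 hpl. Its groups did not overlap either, and it was lower than each neighbour, with a log2 fold change of -2.11 (SE 0.16, adjusted p = 1.58e-14) against 24 hpl and -1.11 (SE 0.16, adjusted p = 1.31e-06) against 72 hpl, while 72 hpl was itself below 24 hpl at -0.999 (SE 0.16, adjusted p = 5.25e-05). The weakly expressed per1a was at 0.0298, 4.09 and 9.75 at 36 hpl, against 9.74, 31.3 and 54.0 at 24 hpl and 3.76, 15.6 and 41.3 at 72 hpl, with 2 of 6 libraries below all others, and its log2 fold change was -2.31 (SE 0.53, adjusted p = 0.00112).

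All 3 of the other clock repressors tested were lower too. Transcripts of bhlhe40 (dec1), a basic helix-loop-helix repressor of Clock and Arntl targets, measured 51.8, 70.6 and 247 at 36 hpl, against 1109.7, 2146 and 4522 at 24 hpl and 878, 1412 and 2428 at 72 hpl. The highest 36 hpl value came from replicate 4 and was still far below the lowest of the 12 others, and the log2 fold change was -4.36 (SE 0.22, adjusted p = 2.83e-21). For ciarta (chrono), a repressor of the Clock-Arntl pair in mammals, the values were 5.16, 9.67 and 24.4 at 36 hpl, against 218, 283 and 779.8 at 24 hpl and 99.8, 156 and 245 at 72 hpl. Its log2 fold change was -4.32 (SE 0.28, adjusted p = 2.89e-17), and the groups were apart. The bhlhe40 relative bhlhe41 had a log2 fold change of -2.28 (SE 0.33, adjusted p = 5.21e-07), with 5 of 6 libraries below the other 12, and the 36 hpl highest of 143 again in replicate 4.

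The cryptochromes, which join the period proteins in the repressor complex, divided into 2 that fell and 2 that rose, with 2 not called among the 6 tested. Values of cry2 were 83.6, 152 and 207 at 36 hpl, against 766, 996 and 2401 at 24 hpl and 526, 694 and 942 at 72 hpl, and its log2 fold change was -2.65 (SE 0.19, adjusted p = 1.23e-15). The light-induced cry1aa had values of 219, 261 and 355 at 36 hpl, against 582, 694 and 1224 at 24 hpl and 484, 630.4 and 820.3 at 72 hpl and a log2 fold change of -1.38 (SE 0.14, adjusted p = 1.53e-10). In contrast, cry1ba was at 2872, 3879.7 and 5300.4 at 36 hpl, against 307, 405 and 589 at 24 hpl and 487, 569.6 and 988 at 72 hpl. Every 36 hpl library lay above every other one, and the log2 fold change was 2.90 (SE 0.16, adjusted p = 1.43e-19). Its paralog cry1bb had values of 639.8, 939 and 1148 at 36 hpl, against 222, 231 and 362 at 24 hpl and 181, 289 and 345 at 72 hpl, also apart, with a log2 fold change of 1.81 (SE 0.17, adjusted p = 2.92e-12). The log2 fold changes of cry1ab and cry4 were -0.60 (adjusted p = 0.159) and 0.01 (adjusted p = 0.993), and cry1ab was lower than at 24 hpl alone at -1.12 (SE 0.33, adjusted p = 0.0102).

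**Figure D1:**
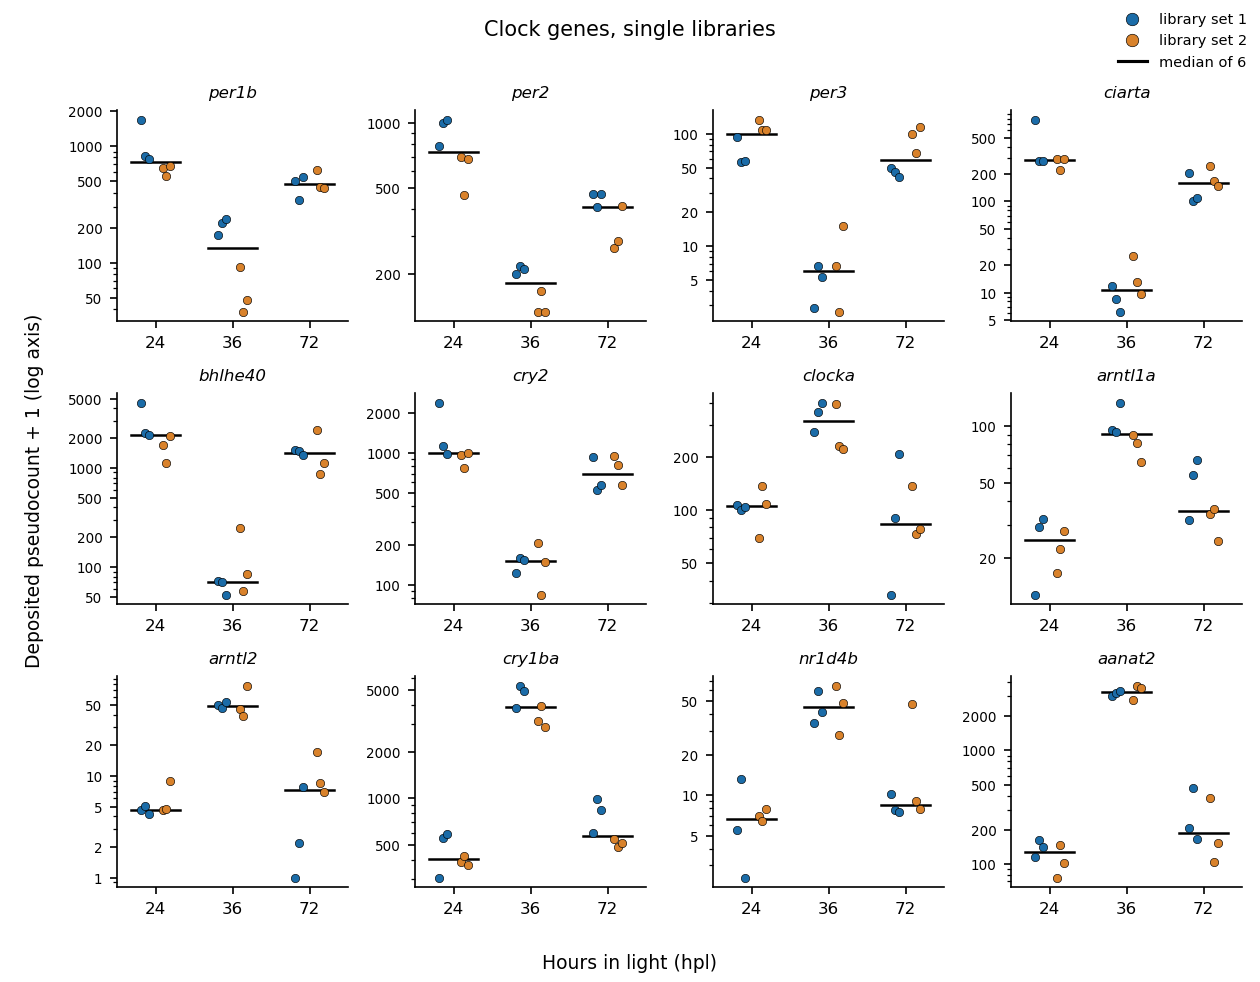
Deposited normalised values plus 1 (log axes) of 12 clock genes in the 6 libraries of 24, 36 and 72 hpl, with library set 1 in blue, set 2 in orange and the median of 6 as a bar. In per1b, per2, per3, ciarta, bhlhe40 and cry2 the 36 hpl libraries lie below all others, and in clocka, arntl2, cry1ba and aanat2 above all others, while in arntl1a 5 and in nr1d4b 3 of the 6 do.

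Among the activators, 4 of 6 were higher and none lower. The values of arntl2 (bmal2) were 37.8, 47.3 and 76.0 at 36 hpl, against 3.18, 3.66 and 7.94 at 24 hpl and 0, 6.34 and 16.2 at 72 hpl, which did not overlap, and its log2 fold change was 3.31 (SE 0.49, adjusted p = 8.1e-07). Those of clocka were 219, 314 and 399 at 36 hpl, against 68.8, 105 and 136 at 24 hpl and 32.4, 82.9 and 206 at 72 hpl, with a log2 fold change of 1.67 (SE 0.24, adjusted p = 4.04e-07). For arntl1a (bmal1a) 5 of the 6 libraries lay above the others, with values of 63.1, 90.1 and 131 at 36 hpl, against 11.7, 23.9 and 31.1 at 24 hpl and 23.6, 34.3 and 65.4 at 72 hpl and a log2 fold change of 1.62 (SE 0.21, adjusted p = 6.53e-08). The fourth, clockb, was called at 0.51 (SE 0.18, adjusted p = 0.0441), but the call was lost without any 1 of 11 libraries (24 hpl replicates 2, 3 and 4, 36 hpl replicates 2, 3, 4 and 6, and 72 hpl replicates 1, 2, 3 and 6), with an adjusted p up to 0.0969, and was lost under both rescalings. For npas2 and arntl1b the log2 fold changes were 0.45 (adjusted p = 0.496) and 0.28 (adjusted p = 0.526).

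Nuclear receptors of the nr1d (Rev-erb) and ror groups, which repress or activate the arntl genes, gave 2 higher and 3 lower of 10. The values of nr1d2b were 6.27, 12.696 and 21.6 at 36 hpl, against 59.3, 81.1 and 110.0 at 24 hpl and 49.0, 76.7 and 101 at 72 hpl and those of rorab 36.7, 69.7 and 95.3 at 36 hpl, against 191, 227 and 350.2 at 24 hpl and 192, 263 and 313 at 72 hpl. Neither gene had a 36 hpl library inside the range of the others, and the log2 fold changes were -2.59 (SE 0.20, adjusted p = 7.81e-15) and -1.98 (SE 0.17, adjusted p = 7.81e-13). The 2 that rose were nr1d4a, at 13.2, 69.0 and 170.4 at 36 hpl, against 1.35, 4.001 and 37.1 at 24 hpl and 0.458, 6.23 and 32.6 at 72 hpl with a log2 fold change of 3.27 (SE 0.59, adjusted p = 4.18e-05), and nr1d4b, at 27.2, 43.9 and 63.9 at 36 hpl, against 1.44, 5.69 and 12.2 at 24 hpl and 6.44, 7.48 and 46.8 at 72 hpl with 2.39 (SE 0.42, adjusted p = 2.69e-05). The nr1d4b value of 46.8 in 72 hpl replicate 4 stood inside the 36 hpl range and the other 5 libraries of 72 hpl did not exceed 9.13. The call of roraa, at -0.91 (SE 0.31, adjusted p = 0.0383), was lost when replicate 1, 2 or 4 of 24 hpl, any of 1 to 5 of 36 hpl, or 5 of 72 hpl was left out, with an adjusted p up to 0.160. For nr1d1 the log2 fold change was -0.60 (adjusted p = 0.0577), with an adjusted p down to 0.0154 when replicate 2 of 24 hpl, 4 or 6 of 36 hpl, or 2 or 3 of 72 hpl was left out, and it was lower than at 24 hpl alone at -0.90 (SE 0.25, adjusted p = 0.00684).

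Of the 11 PAR bZIP and nfil3 factors tested, 3 were higher and 4 lower. The PAR bZIP gene hlfa was at 309, 424 and 719.6 at 36 hpl, against 1256, 1658 and 1819.8 at 24 hpl and 847, 990.0 and 1283 at 72 hpl and tefa at 561, 629.9 and 730.4 at 36 hpl, against 1097, 1373 and 1796 at 24 hpl and 768, 937 and 1063 at 72 hpl, both without overlap. Their log2 fold changes were -1.46 (SE 0.17, adjusted p = 2.36e-09) and -0.82 (SE 0.11, adjusted p = 3.63e-08), so the fall in tefa was small beside that of the repressors. The third, tefb, was called at -0.98 (SE 0.32, adjusted p = 0.0272), and lost the call without 36 hpl replicate 1, 3 or 6 (adjusted p up to 0.139). Genes of the nfil3 group, whose products compete with the PAR factors for the same DNA sites, went both ways. The values of nfil3-6 were 409, 603 and 1395 at 36 hpl, against 1356, 2114 and 3604 at 24 hpl and 436, 929 and 1464 at 72 hpl, with a log2 fold change of -1.12 (SE 0.22, adjusted p = 0.000105), which came from 24 hpl (-1.75 (SE 0.25, adjusted p = 4.06e-07)) more than from 72 hpl (-0.50 (SE 0.25, adjusted p = 0.254)). For nfil3-5 they were 74.4, 147 and 273 at 36 hpl, against 7.69, 18.5 and 59.6 at 24 hpl and 23.6, 67.3 and 296 at 72 hpl, with 1.79 (SE 0.39, adjusted p = 0.000505) in the main comparison and 0.97 (SE 0.44, adjusted p = 0.199) against 72 hpl. These 2 genes differed between 72 and 24 hpl, nfil3-5 at 1.64 (SE 0.44, adjusted p = 0.014) and nfil3-6 at -1.25 (SE 0.25, adjusted p = 0.000666). The calls of nfil3 (0.75 (SE 0.24, adjusted p = 0.028)) and nfil3-2 (1.64 (SE 0.49, adjusted p = 0.0163)) depended on single libraries, nfil3 on 24 hpl replicate 4, 36 hpl replicates 1, 2, 3 and 5 and 72 hpl replicate 2 (adjusted p up to 0.0841 without 1 of them), and nfil3-2 on 36 hpl replicate 3 (adjusted p = 0.0661). The call of nfil3 was also lost under both rescalings. The log2 fold changes of the 4 others (dbpa, dbpb, hlfb and nfil3-3) lay between -0.99 and -0.74 and were not called, though dbpa had an adjusted p down to 0.0244 when replicate 4 of 36 hpl or 2 of 72 hpl was left out.

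Of the 11 kinases and ubiquitin ligases that set the stability of clock proteins, csnk1da, a casein kinase that phosphorylates period proteins, fell to 105, 137 and 160.0 at 36 hpl from 211, 360.1 and 698 at 24 hpl and 138, 243 and 298 at 72 hpl, a log2 fold change of -1.04 (SE 0.15, adjusted p = 4.46e-07). The deubiquitinase gene usp2a was at 169, 229 and 290.0 at 36 hpl, against 390.4, 539 and 919 at 24 hpl and 290.5, 437 and 658 at 72 hpl, without overlap, and its log2 fold change was -1.11 (SE 0.16, adjusted p = 4.22e-07). A small rise was called in fbxl3a, a ligase subunit for cryptochromes, at 0.78 (SE 0.20, adjusted p = 0.00413), in csnk1e at 0.46 (SE 0.11, adjusted p = 0.00235) and in fbxw11b at 0.46 (SE 0.11, adjusted p = 0.00327), and the last 2 were lost under both rescalings (adjusted p = 0.0602 to 0.112). The other 6 were not called, with gsk3b at 0.47 (adjusted p = 0.0507, down to 0.0151 when replicate 5 of 24 hpl, 5 of 36 hpl, or 3, 4 or 5 of 72 hpl was left out).

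Melatonin synthesis gave the largest rise of any clock list gene. Transcripts of aanat2, the enzyme that limits the rate of melatonin synthesis, measured 2781, 3281 and 3707 at 36 hpl, against 74.8, 127 and 160.4 at 24 hpl and 103, 186 and 469 at 72 hpl. The lowest 36 hpl library was far above the highest of the 12 others, and the log2 fold change was 4.34 (SE 0.24, adjusted p = 1.89e-19), with 4.09 in set 1 and 4.59 in set 2. The first enzyme of the pathway, tph1a, was at 152, 193 and 260.0 at 36 hpl, against 27.1, 32.1 and 98.8 at 24 hpl and 2.34, 24.5 and 58.4 at 72 hpl and rose by 2.75 (SE 0.43, adjusted p = 2.07e-06). The last, asmt2, was at 78.6, 120.3 and 142 at 36 hpl, against 38.1, 54.1 and 61.4 at 24 hpl and 29.3, 37.4 and 45.3 at 72 hpl and rose by 1.37 (SE 0.21, adjusted p = 1.75e-06). In both genes the 36 hpl libraries were apart from the rest. The retinal paralog aanat1 had a log2 fold change of 0.50 (adjusted p = 0.136) with an adjusted p down to 0.0211 when replicate 5 of 24 hpl or 4 of 36 hpl was left out. It was higher than at 24 hpl at 1.18 (SE 0.26, adjusted p = 0.000547) but at -0.19 (adjusted p = 0.751) against 72 hpl. The other 5 (asmt, asmtl, tph1b, exorh and mtnr1bb) had adjusted p values of 0.28 to 0.666.

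Of the 35 clock genes called, 30 had their highest (15) or lowest (15) mean of the 7 light time-points at 36 hpl, in the direction of the call. These genes were called because 36 hpl differed from 24 and 72 hpl, so part of this count follows from their choice. Called genes of other lists had such extremes too. The mean at 36 hpl was the highest in 10 of 10 photoreceptor transcription factors and the lowest in 5 of 5 light-induced DNA repair genes. It was the lowest in 13 of 17 other cone phototransduction genes and the highest in none. Of 12 heat shock genes it was the highest in 1 and the lowest in 9, and of 7 cone opsins the highest in 3 and the lowest in none. Such extremes were therefore not particular to the clock lists, and the share over all called genes is not given here. With the 0 h dark retinas included as the eighth time-point, 36 hpl was the highest in 14 of the 35 clock genes and the lowest in 11. The mean of the 0 h dark retinas lay nearer to 36 hpl in 15 and nearer to the mean of 24 and 72 hpl in 20 (on the log2 scale). For per3 and bhlhe40 the 0 h means of 48.6 ± 17.9 (SD, n = 6) and 1482 ± 224 stood with the whole-day retinas, but for cry2 and ciarta the 0 h means of 159 ± 27.4 and 19.3 ± 6.73 stood near those of 36 hpl, 146 ± 41.1 and 11.4 ± 6.82. Among the later whole-day time-points, the mean was nearer to 36 hpl in 5 of the 35 genes after 5 days, in 15 after 10, in 12 after 14 and in 19 after 28 days. From 5 to 28 dpl, in that order, the aanat2 means were 172 ± 41.3, 582 ± 281, 553 ± 309 and 1157 ± 248, against 3269.9 ± 344 at 36 hpl. For bhlhe40 they were 1295 ± 331, 1115 ± 303, 1022 ± 224 and 754 ± 129, against 97.04 ± 74.5. Set against the mean of all 6 whole-day light time-points, 36 hpl had 261 genes (2.29%) higher and 259 (2.27%) lower at a fold of at least 2, and aanat2 and bhlhe40 stood at 3.30 (SE 0.22, adjusted p = 4.65e-17) and -3.85 (SE 0.19, adjusted p = 2.81e-21).

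**Figure D2:**
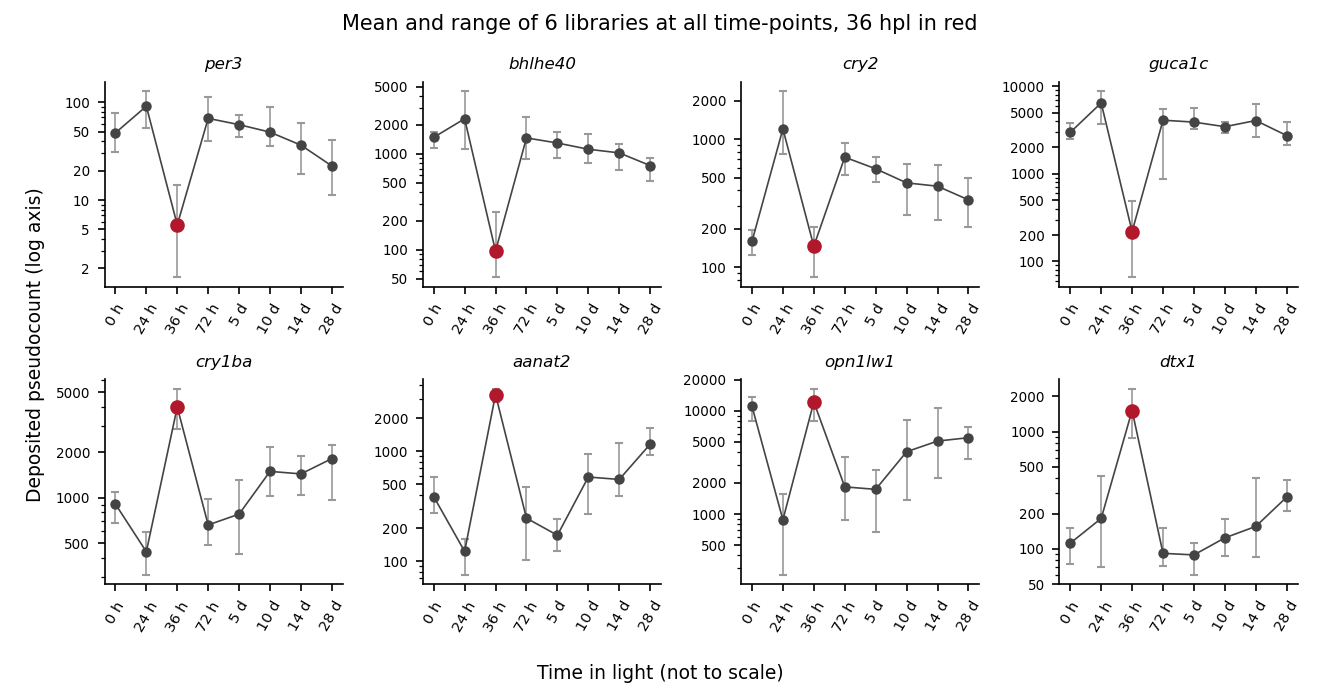
Mean (point) and range (bar) of the 6 libraries of each of the 8 time-points, in deposited normalised values on log axes, for 8 genes, with 36 hpl in red and time on an axis that is not to scale. The 36 hpl mean is the lowest of all 8 time-points in per3, bhlhe40, cry2 and guca1c and the highest in cry1ba, aanat2, opn1lw1 and dtx1. Of the 7 cone opsins called, only 1 had its highest mean of all 8 time-points at 36 hpl (on the log2 scale).

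The light-induced DNA repair genes fell in part, 5 of 12 being lower and none higher (41.7%, beside 5.41% of all genes). The DASH-type cryptochrome gene cry-dash, related to the photolyases, was at 6.53, 9.35 and 19.5 at 36 hpl, against 76.7, 102 and 204 at 24 hpl and 50.6, 74.6 and 102 at 72 hpl, without overlap, and its log2 fold change was -3.07 (SE 0.25, adjusted p = 1.43e-13). The damage recognition gene ddb2 was at 52.6, 76.8 and 93.0 at 36 hpl, against 219, 244 and 289 at 24 hpl and 119.3, 157 and 233 at 72 hpl, also without overlap, with -1.40 (SE 0.19, adjusted p = 1.11e-07). Falls were also called in zgc:66475 (matched to cpdp, a photolyase for pyrimidine dimers) at -1.69 (SE 0.23, adjusted p = 1.08e-07), in apex1 of base excision repair at -1.51 (SE 0.22, adjusted p = 8.1e-07) and in xpc, the partner in damage recognition, at -1.44 (SE 0.25, adjusted p = 1.92e-05). The (6-4) photolyase gene cry5 was at -0.45 (adjusted p = 0.29). All 5 fell against each neighbour taken alone.

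Cone genes were split into opsins, which were higher at 36 hpl, and most of the rest of the cone cascade, which was lower. The values are of whole retinas, in which the number of cones and the RNA per cone cannot be told apart, and genes that rose and genes that fell were measured in the same libraries. Of the 8 cone opsin genes 7 were higher (87.5%, beside 8.87% of all genes tested) and none lower. The red opsin opn1lw1 was at 7973, 12439.9 and 16412 at 36 hpl, against 257, 772 and 1561 at 24 hpl and 869, 1532 and 3576 at 72 hpl, without overlap, with a log2 fold change of 3.42 (SE 0.32, adjusted p = 7.59e-12). Among the green opsins, opn1mw3 was at 848, 1655 and 2450.3 at 36 hpl, against 40.0, 137 and 306 at 24 hpl and 49.8, 163 and 492 at 72 hpl and opn1mw4 at 1141, 2688 and 3535 at 36 hpl, against 63.7, 165 and 342 at 24 hpl and 102, 324 and 720.3 at 72 hpl, both without overlap. Their log2 fold changes were 3.44 (SE 0.37, adjusted p = 3.1e-10) and 3.35 (SE 0.35, adjusted p = 1.5e-10). The values of opn1mw2 were 549, 4041 and 5522 at 36 hpl, against 38.5, 67.1 and 213 at 24 hpl and 64.1, 381 and 1118 at 72 hpl, and all but 36 hpl replicate 4 lay above the other 12, with a log2 fold change of 4.05 (SE 0.40, adjusted p = 2.03e-11). Its mean also differed between 72 and 24 hpl, at 2.15 (SE 0.46, adjusted p = 0.00131). For opn1mw1 the 36 hpl libraries spread from 7.38 to 2138, and the log2 fold change of 3.24 (SE 0.80, adjusted p = 0.00274) was 4.12 without 36 hpl replicate 4. It was called against 24 hpl but not against 72 hpl (2.07, adjusted p = 0.187). Blue (opn1sw2) and UV (opn1sw1) opsins rose by 1.84 (SE 0.26, adjusted p = 2.91e-07) and 1.29 (SE 0.24, adjusted p = 7.54e-05). The red opsin copy opn1lw2 was not called, at -0.14 (SE 0.58, adjusted p = 0.907), and its values of 36.2, 147 and 323 at 36 hpl, against 4.86, 53.7 and 301 at 24 hpl and 80.0, 373 and 1139 at 72 hpl overlapped throughout. Reads of the tandem copies within the green and within the red group may be shared, since the treatment of multiply mapped reads is not stated.

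Of 26 other cone phototransduction genes, 13 were lower and 4 higher (15.4%), beside 5.41% lower and 8.87% higher among all genes tested. The list had a median log2 fold change of -1.01, beside 0.17 in all genes. The largest fall was in guca1c, a calcium sensor that activates guanylate cyclase, at 65.9, 219 and 491 at 36 hpl, against 3748, 6602 and 8857 at 24 hpl and 868, 4375 and 5562 at 72 hpl. Its groups did not overlap, although 72 hpl replicate 4 alone supplied the low 72 hpl value and the other 5 were at 3899 or above, and the log2 fold change was -4.71 (SE 0.28, adjusted p = 6.78e-19). For pde6c, the catalytic subunit of the cone phosphodiesterase, the values were 307, 457 and 594 at 36 hpl, against 3165, 5373 and 6400.0 at 24 hpl and 1142, 5098 and 7122 at 72 hpl, with a log2 fold change of -3.35 (SE 0.23, adjusted p = 1.36e-16). The visinin-type calcium sensor rcvrn3 was at 297, 506 and 590.3 at 36 hpl, against 1946, 3479.6 and 6139.7 at 24 hpl and 1284, 4543 and 4859 at 72 hpl, without overlap, with -2.99 (SE 0.20, adjusted p = 1.78e-16). The opsin kinase grk7a was at 68.6, 139 and 213 at 36 hpl, against 503, 1637 and 2374 at 24 hpl and 125, 1309.9 and 1674 at 72 hpl with -3.11 (SE 0.30, adjusted p = 1.86e-11), and its value of 125 in 72 hpl replicate 4 lay inside the 36 hpl range, where the other 11 libraries of 24 and 72 hpl were at 503 or above. The inhibitory phosphodiesterase subunits pde6h and zgc:73359 (matched to pde6hb), the cone arrestins arr3a and arr3b, the transducin alpha subunit gnat2, the guanylate cyclase gc3, the GTPase activator rgs9a and the calcium sensor guca1d all fell, with log2 fold changes from -1.46 in gnat2 to -2.64 in guca1d. The exchanger slc24a2 had the smallest of the 13 falls, at -0.88 (SE 0.24, adjusted p = 0.00888), and was at -0.41 (adjusted p = 0.45) against 72 hpl alone. In 72 hpl replicate 4 gnat2 (422) was below every 36 hpl library. The 4 that rose were the transducin beta and gamma subunits gnb3a (0.69), gnb3b (1.06), gngt2a (0.87) and gngt2b (1.23), adjusted p between 5.09e-07 and 0.00372. Alpha and beta-gamma subunits of the same G protein thus moved in opposite directions.

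**Figure D3:**
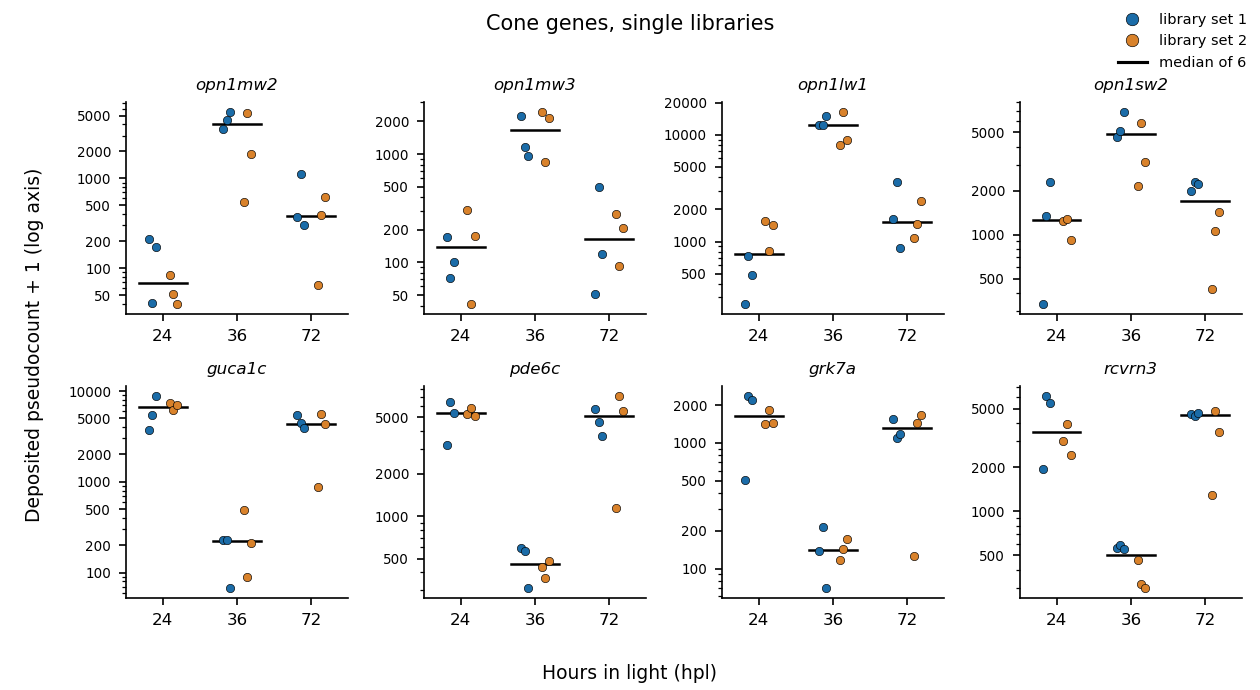
Deposited normalised values plus 1 (log axes) of 4 cone opsin genes (upper row) and 4 other cone phototransduction genes (lower row) in the 6 libraries of 24, 36 and 72 hpl, set 1 in blue and set 2 in orange, with the median as a bar. The opsins are higher and the others lower at 36 hpl, with 72 hpl replicate 4 at 868 in guca1c and 125 in grk7a, the lowest of its group in each.

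In the rod cascade 6 of 15 genes were higher (40.0%) and 2 lower (13.3%), beside 8.87% and 5.41% of all genes tested. The guanylate cyclase activator guca1a stood out with 266, 959 and 2354 at 36 hpl, against 32.8, 42.1 and 405 at 24 hpl and 61.9, 122 and 305 at 72 hpl, a log2 fold change of 3.102 (SE 0.42, adjusted p = 9.36e-08) and 5 of 6 libraries above the other 12. The 5 others (rho, gnat1, gnb1a, gngt1 and pde6g, that is, rod opsin, the 3 transducin subunits and the phosphodiesterase inhibitor) rose by 0.78 to 1.02. Rod opsin had values of 29014, 39315 and 65384 at 36 hpl, against 20134, 25436 and 40181 at 24 hpl and 10422, 14123 and 43328 at 72 hpl, where replicates 1 and 2 of 72 hpl made up the high end, and its log2 fold change was 0.81 (SE 0.24, adjusted p = 0.0158). With library set 1 alone only 1 of the 6 was called, and with set 2 alone 6 were. The rod arrestins saga and sagb fell, with log2 fold changes of -1.25 (SE 0.24, adjusted p = 7.29e-05) and -0.98 (SE 0.26, adjusted p = 0.00562). Both calls were lost with set 2 alone, at -0.81 (adjusted p = 0.0857) and -0.76 (adjusted p = 0.0685). The phosphodiesterase subunit pde6a and the kinase grk1a were not called, at 0.36 (adjusted p = 0.474) and -0.55 (adjusted p = 0.461).

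Of 17 photoreceptor transcription factors 10 were higher (58.8%, beside 8.87% of all genes tested) and none lower. Most of these rises were small, from 0.56 in otx2 to 0.94 in tbx2a, and after either rescaling 6 were higher and 1 lower. The retinoid X receptor gene rxrgb was at 39.7, 87.7 and 164 at 36 hpl, against 10.9, 19.9 and 28.3 at 24 hpl and 6.67, 17.8 and 37.6 at 72 hpl, without overlap, with a log2 fold change of 2.12 (SE 0.30, adjusted p = 3.17e-07). The bHLH factor neurod1 was at 1600.3, 1751 and 2897 at 36 hpl, against 639, 799.9 and 1137 at 24 hpl and 882, 1105 and 1519.9 at 72 hpl, also without overlap, with 1.03 (SE 0.19, adjusted p = 4.11e-05). Its call was lost with set 2 alone (0.77, adjusted p = 0.153). For crx, the homeobox factor of all photoreceptors, the log2 fold change was 0.59 (SE 0.11, adjusted p = 3.47e-05), with 5 of 6 libraries above the other 12. Neither nrl (0.05, adjusted p = 0.933) nor nr2e3 (-0.68, adjusted p = 0.173), factors of rod identity, was called. Of the 12 outer segment structure genes 2 rose (16.7%) and 2 fell (16.7%), beside 8.87% and 5.41% of all genes tested. They were led by unc119b, which carries lipid-tailed proteins to the outer segment, at -1.21 (SE 0.13, adjusted p = 1.71e-10), and by rom1a, a disc rim protein, at 1.097 (SE 0.28, adjusted p = 0.0039). The rom1a call was lost with set 1 alone (0.71, adjusted p = 0.234).

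Of the 31 genes of the visual cycle and pigment epithelium list 4 rose (12.9%) and 2 fell (6.45%), beside 8.87% and 5.41% of all genes tested, and the 2 that fell were retinoid carriers. The retinol-binding protein gene rbp4l was at 6752, 12899 and 23816 at 36 hpl, against 31581, 59835 and 91428 at 24 hpl and 31959.8, 54789.8 and 63528 at 72 hpl, without overlap, with a log2 fold change of -2.06 (SE 0.20, adjusted p = 2.13e-11), and irbp, the retinoid carrier between photoreceptors and pigment epithelium, was at -1.70 (SE 0.22, adjusted p = 2.9e-08). The rises were in lrata, a retinol esterifying enzyme, at 2.29 (SE 0.45, adjusted p = 0.000126), in pmelb (1.29) and mitfa (1.52) of pigment cells, and in crabp1a (0.62). Those of lrata, pmelb and mitfa were called against 24 hpl but not against 72 hpl (adjusted p = 0.0585, 0.952 and 0.191). The summed level of the 35 list members in the table was 30308 to 42281 at 36 hpl, 41000.2 to 116082 at 24 hpl and 41400.1 to 97124 at 72 hpl. Without rbp4l the other 34 summed to 16651 to 28108, 9419 to 27715 and 9440.3 to 35262, and the groups overlapped.

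In the inner retina 6 of 40 genes of bipolar, amacrine, ganglion and horizontal cells rose (15.0%) and 6 fell (15.0%). The shares among all genes tested were 8.87% and 5.41%, and the list median was 0.07. After upper quartile rescaling 3 rose and 6 fell. The bipolar cell factor vsx1 was at 1001, 1225 and 1323 at 36 hpl, against 338, 511 and 792 at 24 hpl and 304, 462 and 619 at 72 hpl, without overlap, and rose by 1.32 (SE 0.15, adjusted p = 1.49e-09), with 1.32 in each set. The bipolar calcium-binding protein gene cabp5a was at 96.9, 144 and 211 at 36 hpl, against 356, 419 and 552 at 24 hpl and 335, 412 and 560.1 at 72 hpl with a log2 fold change of -1.51 (SE 0.15, adjusted p = 5.28e-11), also without overlap, so markers of the same cell class moved in opposite directions. Of the 27 Müller glia genes 3 rose (11.1%) and 4 fell (14.8%), beside 8.87% and 5.41% of all genes tested. The largest fall was in mdka, a secreted growth factor, at 598, 741 and 2256 at 36 hpl, against 2826, 3742 and 4118 at 24 hpl and 1874, 2746 and 3596 at 72 hpl. Its log2 fold change was -1.79 (SE 0.16, adjusted p = 2.72e-12), and 5 of 6 libraries lay below the other 12, the exception being the 36 hpl highest of 2256. The summed level of the 31 Müller glia markers in the table was 7921 to 11161 at 36 hpl, 13613 to 15545 at 24 hpl and 7735 to 15630 at 72 hpl, so 36 hpl lay below every 24 hpl library but within the range of 72 hpl. The part of this difference in the results was not tested. In the synapse list of 25 genes 4 rose and 5 fell (3 without 36 hpl replicate 1 or 2), beside 8.87% and 5.41% of all genes tested. Against 24 hpl 1 was higher and 7 lower, and against 72 hpl 5 were higher and 4 lower. At 72 hpl 4 were lower than at 24 hpl and none higher. Among the rises was the photoreceptor synaptic calcium channel gene cacna1fb, at 1.45 (SE 0.17, adjusted p = 4.44e-09). The falls included the vesicle fusion genes vamp1 (-1.34 (SE 0.21, adjusted p = 4.22e-06)) and cplx4b (-2.21 (SE 0.40, adjusted p = 3.12e-05)). The cplx4b call was lost with set 2 alone (-1.81, adjusted p = 0.119). Of the 11 genes tested in the potassium and HCN channel list 3 fell (27.3%, beside 5.41% of all genes tested) and none rose. These were the Kv channel-interacting calcium sensors kcnip3a (-1.48 (SE 0.12, adjusted p = 2.37e-13)), kcnip3b (-1.06 (SE 0.14, adjusted p = 3.64e-08)) and kcnip1b (-0.92 (SE 0.15, adjusted p = 6.38e-06)).

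**Figure D4:**
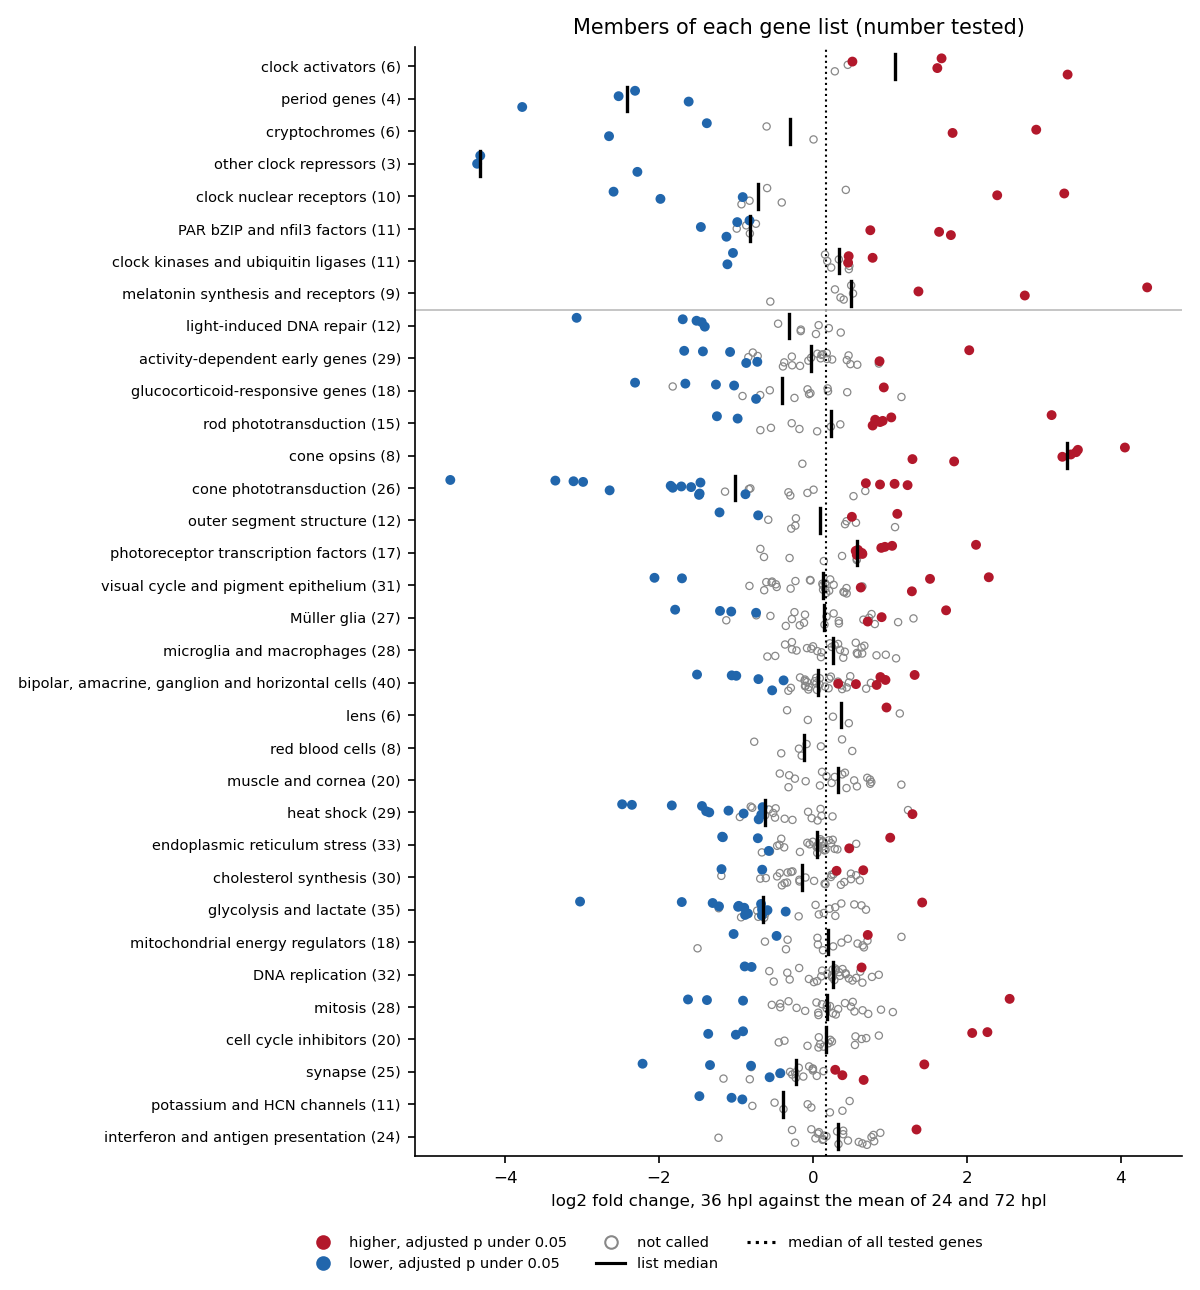
Log2 fold changes at 36 hpl against the mean of 24 and 72 hpl for the tested members of the 34 gene lists (number tested in brackets), with the 8 clock lists above the grey line. Red and blue points are higher and lower at an adjusted p under 0.05, open points were not called, bars are list medians and the dotted line is the median of all tested genes (0.17). Period genes and other clock repressors lie to the left, cone opsins to the right, and the cone phototransduction and cryptochrome lists on both sides.

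Outside the clock lists, the named genes were the 15 largest rises and the 15 largest falls whose 36 hpl mean lay outside both neighbours in both library sets. All 30 were called in each of the 18 fits that leave out 1 library. In 10 of the rises and 14 of the falls all 6 libraries of 36 hpl lay outside the range of the other 12. Among all genes tested, 1.47% had all 6 above and 1.11% all 6 below. The 30 were picked by the size of this same difference, so neither count is a separate result. Besides the 5 opsins and guca1a, the rises included ptger1c, a prostaglandin E receptor gene, at 6.65, 25.4 and 36.9 at 36 hpl, against 0, 0.0121 and 1.46 at 24 hpl and 0, 0 and 1.28 at 72 hpl. It was near 0 in all 12 libraries of 24 and 72 hpl, and its log2 fold change on the log2(value + 1) scale was 4.12 (SE 0.51, adjusted p = 1.38e-08). Among the 18 libraries only those of 36 hpl reached the filter value of 5, so here ptger1c passed through the group where it was high. The ubiquitin ligase gene dtx1 (deltex), a regulator of Notch signalling, was at 887, 1502 and 2334 at 36 hpl, against 69.6, 140.1 and 422 at 24 hpl and 71.5, 83.1 and 150.0 at 72 hpl, with 3.64 (SE 0.26, adjusted p = 9.77e-16). For rd3, an inhibitor of retinal guanylate cyclase, the values were 369, 549.7 and 708 at 36 hpl, against 13.5, 64.9 and 81.0 at 24 hpl and 40.6, 72.2 and 89.5 at 72 hpl and the log2 fold change 3.195 (SE 0.25, adjusted p = 1.26e-14). The scaffold gene disc1 was at 131, 175 and 225 at 36 hpl, against 2.73, 14.4 and 29.4 at 24 hpl and 8.31, 14.8 and 57.8 at 72 hpl, with 3.49 (SE 0.36, adjusted p = 1.19e-10). Transcripts of sp5a, a zinc finger target of Wnt signalling, were at 91.6, 110.2 and 158 at 36 hpl, against 3.61, 6.85 and 13.02 at 24 hpl and 13.04, 15.8 and 18.2 at 72 hpl, with 3.33 (SE 0.29, adjusted p = 8.27e-13). Groups were also apart in rimkla, a synthase of N-acetylaspartylglutamate (3.17 (SE 0.27, adjusted p = 3.53e-13)), and in the follistatin gene fsta (3.02 (SE 0.29, adjusted p = 1.27e-11)), while draxin, an axon guidance gene, had 5 of 6 libraries above the rest (2.96 (SE 0.44, adjusted p = 1.16e-06)). The si:busm1-57f23.1 transcript rose by 3.28 (SE 0.48, adjusted p = 5.52e-07) with 2 of 6 libraries above the rest.

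Of these falls the largest was in si:ch211-132b12.7, a gene without a name, at 0.188, 3.50 and 12.74 at 36 hpl, against 164, 236 and 357 at 24 hpl and 54.0, 171 and 196 at 72 hpl, with a log2 fold change of -5.50 (SE 0.33, adjusted p = 2.2e-18). The phosducin gene pdcb, whose product binds transducin beta-gamma subunits, was at 70.24, 147 and 205 at 36 hpl, against 1461, 2065 and 2905 at 24 hpl and 1055, 1549.9 and 1882 at 72 hpl. With a log2 fold change of -3.64 (SE 0.16, adjusted p = 8.12e-24) it had the smallest adjusted p of the named genes. The neuronal calcium sensor gene ncaldb was at 22.7, 56.0 and 138 at 36 hpl, against 1030.4, 1339.5 and 2401 at 24 hpl and 347, 817 and 1111 at 72 hpl, with -4.15 (SE 0.27, adjusted p = 4.43e-17), or -5.13 in set 1 and -3.18 in set 2 (adjusted p of the difference 0.101). The secreted protease gene htra1b was at 15.2, 37.97 and 51.8 at 36 hpl, against 296, 385 and 549 at 24 hpl and 303, 397 and 471 at 72 hpl, with -3.54 (SE 0.18, adjusted p = 6.21e-21). For arg2, the mitochondrial arginase, the values were 143, 238 and 292 at 36 hpl, against 1313, 2222 and 3426 at 24 hpl and 1169, 1549 and 2214 at 72 hpl and the log2 fold change -3.14 (SE 0.15, adjusted p = 1.43e-21). The remaining ones were zgc:162144 (-3.81), the kinase gene camkk1b (-3.68), the cGMP-dependent kinase gene prkg2 (-3.38), the glutamate transporter gene slc1a8b (-3.37), the methionine adenosyltransferase gene mat2ab (-3.32) and fam107b (-3.26), with adjusted p values of 2.35e-18 to 2.08e-07 and all 6 libraries of 36 hpl below the other 12. With guca1c, pde6c and grk7a of cones and cry-dash these make up the 15. In camkk1b, prkg2 and slc1a8b at least 1 library of 36 hpl was listed at 0.

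Metabolic and stress lists had unequal counts of calls against the 2 neighbours, and some of their genes also differed between 24 and 72 hpl. Of 35 glycolysis and lactate genes 17 were lower (48.6%) and 1 higher (2.86%), beside 5.41% and 8.87% of all genes tested. In this list 19 were lower against 24 hpl (6.52% of all genes tested were), 5 lower against 72 hpl (3.59%) and 8 lower at 72 than at 24 hpl (1.89%). Only 3 were lower with library set 2 alone, and 11 without the 4 distant libraries. The glucose transporter gene slc2a1a was at 0.833, 5.30 and 32.6 at 36 hpl, against 26.1, 75.7 and 124 at 24 hpl and 18.1, 37.9 and 145 at 72 hpl, with a log2 fold change of -3.03 (SE 0.46, adjusted p = 1.3e-06). Hexokinase 1 (hk1) was at 205, 301 and 1298 at 36 hpl, against 768, 1465 and 4645 at 24 hpl and 521, 751 and 4118 at 72 hpl, with -1.70 (SE 0.30, adjusted p = 2.95e-05), where 72 hpl replicate 4 held the highest 72 hpl value and 36 hpl replicate 4 the highest at 36 hpl. The lactate dehydrogenase gene ldhbb rose, from 108, 191 and 305 at 24 hpl and 105, 167 and 203 at 72 hpl to 359, 449.7 and 626 at 36 hpl, a log2 fold change of 1.42 (SE 0.19, adjusted p = 7.66e-08), while its paralog ldhba fell, with a log2 fold change of -0.66 (SE 0.11, adjusted p = 3.7e-06).

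In the heat shock list 11 of 29 genes were lower (37.9%) and 1 higher (3.45%), beside 5.41% and 8.87% of all genes tested. Here 14 were lower against 72 hpl (3.59% of all genes tested were) and 5 against 24 hpl (6.52%). At 72 hpl 12 were higher than at 24 hpl (5.84%). With library set 1 alone 3 were lower. The factor hsf2 was at 51.1, 56.6 and 73.1 at 36 hpl, against 351, 419 and 496 at 24 hpl and 229, 269 and 304 at 72 hpl, without overlap, with a log2 fold change of -2.48 (SE 0.17, adjusted p = 6.59e-17), and fell against each neighbour. The mitochondrial chaperonins hspd1 and hspe1 also fell against each, with -1.35 (SE 0.18, adjusted p = 4.43e-08) and -1.44 (SE 0.18, adjusted p = 1.68e-08) in the main comparison. The inducible hsp70l was at 5.99, 16.5 and 57.9 at 36 hpl, against 3.48, 56.1 and 204 at 24 hpl and 59.2, 89.5 and 1831 at 72 hpl, with -2.35 (SE 0.49, adjusted p = 0.000337), and the highest 72 hpl value was from replicate 4. It was called against 72 hpl (-3.19 (SE 0.57, adjusted p = 4.62e-05)) and at -1.51 (adjusted p = 0.0505) against 24 hpl. Among 33 endoplasmic reticulum stress genes 2 rose (6.06%) and 4 fell (12.1%), beside 8.87% and 5.41% of all genes tested. Among the falls were xbp1 (-1.18 (SE 0.17, adjusted p = 6.2e-07)) and the chaperone hspa5 (-1.17 (SE 0.21, adjusted p = 3.24e-05)), both lower against each neighbour. Against 24 hpl, 8 genes of this list were higher (1578 of all 11395 genes tested were) and 3 lower (6.52%). Against 72 hpl none was higher and 7 were lower (3.59%), and 10 were higher at 72 than at 24 hpl (5.84%).

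The counts of the remaining lists are read beside 8.87% higher and 5.41% lower among all genes tested. Of 29 activity-dependent early genes 2 rose (6.90%) and 5 fell (17.2%, but 3 genes when replicate 4 of either 24 or 36 hpl was left out, and 2 without replicate 5 of 36 hpl), and the salt-inducible kinase gene sik1 was at 422, 756 and 1061 at 36 hpl, against 132, 195 and 411 at 24 hpl and 71.1, 174 and 259.8 at 72 hpl, with 2.03 (SE 0.19, adjusted p = 7.59e-12) and no overlap. Of 18 glucocorticoid-responsive genes 1 rose (5.56%) and 5 fell (27.8%, or 8 genes without 36 hpl replicate 4), among them the kinase sgk1 (-1.26 (SE 0.20, adjusted p = 5.09e-06)), with per1a counted in this list too. The cell cycle inhibitor gene cdkn1a was at 105, 112 and 113 at 36 hpl, against 11.3, 19.0 and 23.5 at 24 hpl and 4.39, 35.0 and 73.1 at 72 hpl, with 2.27 (SE 0.30, adjusted p = 9.36e-08) and no overlap, and 2 of the 20 cell cycle inhibitors rose (10.0%) and 3 fell (15.0%). The spindle gene hmmr was at 67.0, 164 and 257 at 36 hpl, against 15.3, 21.5 and 62.3 at 24 hpl and 4.95, 25.6 and 51.4 at 72 hpl, with 2.56 (SE 0.32, adjusted p = 2.5e-08), yet of 28 mitosis genes 1 rose and 3 fell, and of 32 DNA replication genes 1 and 2. Of 30 cholesterol synthesis genes 2 rose and 2 fell, of 18 mitochondrial energy regulators 1 and 2, and of 24 interferon and antigen presentation genes 1 and 0.

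None of 28 microglia and macrophage genes, 8 red blood cell genes or 20 muscle and cornea genes was called in the main comparison, beside 14.3% of all genes tested. Their medians were 0.26, -0.11 and 0.33 on the log2 scale. Against 24 hpl alone, 3 microglia and 2 muscle and cornea genes were higher (1578 of all 11395 genes tested were). At 72 hpl, 3 and 1 were higher than at 24 hpl (5.84% of all genes tested). The microglia markers summed to 1895 to 4170 at 36 hpl, 1936 to 3033 at 24 hpl and 2252 to 4787 at 72 hpl. The summed level of the red blood cell markers was 254 to 1068 at 36 hpl, 382 to 589.6 at 24 hpl and 239 to 483 at 72 hpl. Of the 6 lens genes tested 1 rose (cryba4, at 0.94 (SE 0.33, adjusted p = 0.0465), a call that was lost when replicate 1, 4 or 6 of 24 hpl, 2, 3, 5 or 6 of 36 hpl, or 3 or 4 of 72 hpl was left out). The 31 lens markers in the table summed to 78.9 to 100.004 at 36 hpl, 57.1 to 82.2 at 24 hpl and 37.2 to 68.4 at 72 hpl, with 12 of them at 0 in all 36 hpl libraries. Without cryba4 the other 30 summed to 25.1 to 61.2 at 36 hpl, 27.6 to 76.0 at 24 hpl and 18.7 to 48.1 at 72 hpl, and the groups overlapped. The part of these differences in the results above was not tested.

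The 2 library sets hold different fish, so each could be compared with the other. With set 1 alone (3 against 6 libraries) 1347 genes (11.8%) were called at the adjusted p and with set 2 alone 594 (5.21%). Of the 1347, 91.9% had the same direction in set 2 and 32.8% (442) were called there in that direction. Of the 594, 96.8% had the same direction in set 1 and 74.4% (442) were called. Among the clock lists 33 genes were called with set 1, all with the same direction in set 2 where 23 were called, and the 23 called with set 2 were all called with set 1. A test of the set difference called 1 gene of 11395 (0.00878%), sox11b, while 874 (7.67%) had an unadjusted p under 0.05. It called none without 36 hpl replicate 1, and 3 higher and 10 lower genes without 72 hpl replicate 3. Without 72 hpl replicate 6 it called 2 and 3, and leaving out replicate 1, 3 or 6 of 24 hpl, or 2 or 4 of 36 hpl, gave 2 lower genes.

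**Figure D5:**
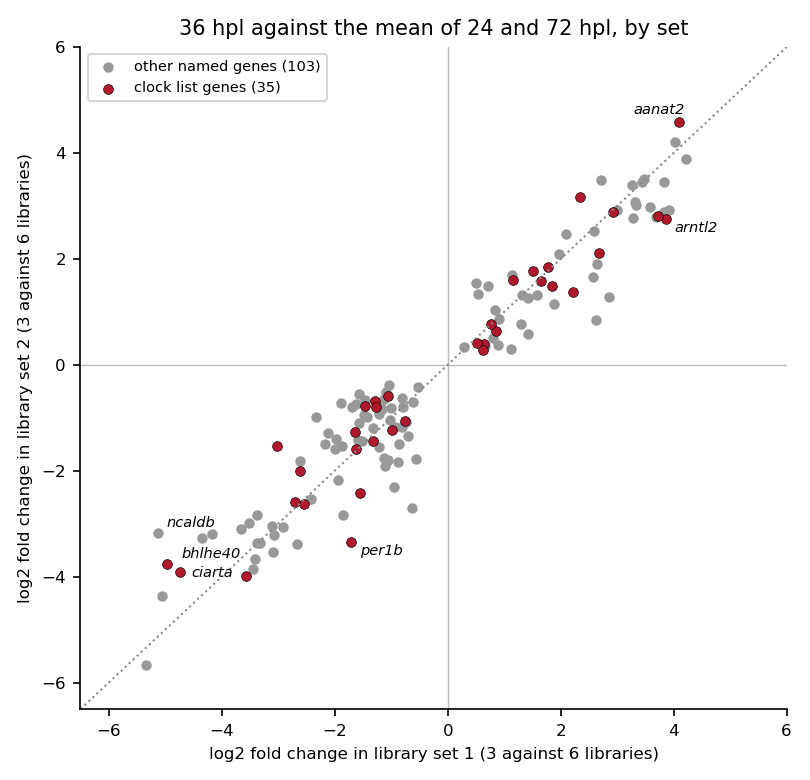
Log2 fold change at 36 hpl against the mean of 24 and 72 hpl in library set 1 (horizontal) and set 2 (vertical), each from 3 against 6 libraries, for the 35 clock list genes called (red) and 103 other named genes called (grey), with a dotted line of equality. All points were chosen with both sets in view (called over both, and for the 30 largest also placed outside both neighbours in each set), so their shared sign is no result, and per1b (-1.71 and -3.34) and ncaldb (-5.13 and -3.18) lie farthest from the line among the labelled genes.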

How the data were processed

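Retinal 3' mRNA libraries from 48 fish (8 time-points, 6 each) were analysed from 1 deposited table. Per the paper's methods the authors used STAR, HTSeq and edgeR (versions not given in the sources used here). The deposited signal values are edgeR pseudocounts that the authors scaled to a common library size, on a linear scale and no longer raw reads, so no count model was run and the depth per library is unknown. The other deposited sheets hold the authors' own comparisons (fold changes and p-values) and were not used. Of 15245 listed genes, 12 rows with symbols turned into dates (0.128% of signal) were left out.

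Values were tested as log2(value + 1) with limma 3.58.1 in R 4.3.3 (tables and plots in Python 3.11.15) for the 11395 genes at 5 or more in at least 6 libraries, with terms for time-point and library set over all 48 libraries and Benjamini-Hochberg adjustment over all genes tested. Fold changes on this scale understate changes of low genes. Genes were called at an adjusted p under 0.05, and counts over all genes also required a fold of 2 where stated. An interaction term tested the difference between sets. The code was tested on simulated data. Replicates were separate fish, 1 retina each. Light treatment was done in 2 rounds, and which libraries came from which is not stated.

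Members and gene lists were chosen with earlier results of these data known. Named genes were all clock list members, the 15 largest rises and 15 largest falls among other called genes with the 36 hpl mean outside both neighbours in both sets, and up to 4 called members of each list. Genes such as gnb3a, crx or ldhba were named in addition after their values were seen, to complete a group. Alternatives were pseudocounts of 0.5 and 5, other filters, both rescalings, a fold of 1.5, the 18 libraries alone, each set alone, no set term, a replicate block, robust eBayes, and each of the 18 libraries left out. RefSeq names (20 symbols matched by synonym) were used without coordinates, as their assembly is another build.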

Additional observations from a re-analysis of the deposited data

Results flagged for a closer look

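In 27 of 228 groups of 6 libraries (76 genes at 3 time-points), 1 library stood apart from the other 5. On the log2(value + 1) scale, its gap to the nearest of them was a larger share of the group's whole range than Dixon's 95% critical value. About 1 in 20 groups, or 11.4 of 228, would do so by chance. Each is given with its deposited value and the range of the other 5 libraries. The gap is a share of the group's range on the log2(value + 1) scale, so the printed deposited values do not give it directly. In 24 hpl replicate 1 these were per1b (1677 against 558 to 827, gap 0.643), cry2 (2401 against 766 to 1122, gap 0.666), ciarta (779.8 against 218 to 293, gap 0.768), bhlhe41 (711 against 153 to 188, gap 0.866), tph1a (98.8 against 27.1 to 35.4, gap 0.795), xpc (101 against 259.7 to 442, gap 0.639), pde6c (3165 against 5113 to 6400.0, gap 0.681), grk7a (503 against 1426 to 2374, gap 0.671) and rd3 (13.5 against 45.6 to 81.0, gap 0.674). Single genes stood apart in 24 hpl replicate 6, arntl2 (7.94 against 3.18 to 4.05, gap 0.751), and in 24 hpl replicate 2, cry-dash (204 against 76.7 to 107, gap 0.660). At 36 hpl, replicate 4 stood apart in bhlhe40 (247 against 51.8 to 85.1, gap 0.684), nfil3-6 (1395 against 409 to 621, gap 0.660) and hk1 (1298 against 205 to 396, gap 0.644). Replicate 6 of 36 hpl did in pdcb (70.24 against 141 to 205, gap 0.648) and cdkn1a (105 against 110.0 to 113, gap 0.6251). In 72 hpl replicate 4 they were nr1d4b (46.8 against 6.44 to 9.13, gap 0.834), zgc:66475 (29.7 against 82.7 to 152, gap 0.626), guca1c (868 against 3899 to 5562, gap 0.809), pde6c (1142 against 3709.6 to 7122, gap 0.644), grk7a (125 against 1098 to 1674, gap 0.837), rcvrn3 (1284 against 3494 to 4859, gap 0.752), dtx1 (150.0 against 71.5 to 88.0, gap 0.721) and hk1 (4118 against 521 to 844, gap 0.767). In 72 hpl replicate 5 they were tph1a (2.34 against 19.7 to 58.4, gap 0.633), ptger1c (1.28 against 0 to 0.00782, gap 0.991) and prkg2 (57.9 against 18.04 to 27.8, gap 0.633).

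The difference between 36 hpl and the mean of 24 and 72 hpl was not the same in the library sets for sox11b, a neural transcription factor gene of the Sox family. Its log2 fold change was 0.67 in set 1 and -1.53 in set 2, and set 2 minus set 1 was -2.20 (SE 0.35, adjusted p = 0.00184) by a limma interaction term. Over both sets it was -0.43 (SE 0.23, adjusted p = 0.231).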

How the results depend on the processing

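None of the 138 named genes called reversed its direction in any alternative fit, while some named genes that were not called changed sign (cry4 ranged from -0.33 to 0.32 and csnk1db from -0.12 to 0.45). The 138 were chosen by their calls in the main fit, and the alternative fits reuse its libraries. Their unchanged direction is therefore no separate support. Of the 138, 124 to 137 were still called when 1 library was left out and 129 under each rescaling, while 19 calls were lost with library set 1 alone and 48 with set 2 alone. Counts are given for the comparison of 36 hpl with the mean of 24 and 72 hpl unless another is named, and the cause of a change was not tested except where fewer libraries entered. With a fold of 1.5 in place of 2, 729 genes were higher and 525 lower, against 24 hpl 1179 were higher, against 72 hpl 490 were higher and 368 lower, 72 against 24 hpl gave 537 and 174, and the mean of 6 whole-day time-points gave 521 and 434. After median-of-ratios rescaling, 324 were higher than at 24 hpl, 72 against 24 hpl gave 113 and 128, and 6 photoreceptor factors were higher and 8 synapse genes lower. After upper quartile rescaling, 237 genes were higher, 326 higher than at 24 hpl, 6 photoreceptor factors and 3 inner retina genes higher.

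With a pseudocount of 5, 112 genes were higher at 72 than at 24 hpl. With only the 18 libraries in the fit, 72 against 24 hpl gave 104 and 38, the set difference 0 lower genes, and 3 early genes and 10 glycolysis genes were lower. With library set 1 alone, 1 early gene and 3 heat shock genes were lower and 1 rod gene and 6 photoreceptor factors higher. With library set 2 alone, 208 genes were higher, against 24 hpl 231 were higher and 255 lower, against 72 hpl 190 were higher, and 72 against 24 hpl gave 42 and 16. In that fit 9 clock genes, 5 photoreceptor factors and 2 inner retina genes were higher, and 3 early, 2 glucocorticoid-responsive, 3 glycolysis and 1 synapse genes lower. Without the 4 distant libraries, an alternative chosen after seeing the data, 72 against 24 hpl gave 109 and 47, the set difference 1 higher and 4 lower, and 3 early and 11 glycolysis genes were lower.

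Over the fits that each left out 1 library, 72 against 24 hpl gave 117 to 245 higher and 37 to 120 lower genes, the set difference 0 to 3 higher and 0 to 10 lower, and the lists 2 to 6 early, 4 to 8 glucocorticoid-responsive and 3 to 6 synapse genes lower. Libraries with the same replicate number did not deviate together (r from -0.0864 to 0.165 over 18 pairs, against -0.210 to 0.219 over 36 pairs of other numbers in a set). With the replicate block on the 18 libraries, 336 genes were higher and 313 lower, 72 against 24 hpl gave 88 and 42, 3 early genes were lower, and 126 of the 138 named genes were still called. The depth behind the values is not known. On simulated data for this comparison over 11395 genes, of which 200 were changed, 49% of 2-fold and 87% of 4-fold changes were recovered, so small changes can be missed. The comparison itself called 1627 genes (14.3%), so the recovered shares need not hold for it.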
